A study of Homo sapiens with 16 samples.

Results

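The 42 genes described here encode 2 glucose transporters, 21 enzymes on or next to the route from glucose to lactate, and 19 genes of the cell's response to low oxygen. They were taken from the count files by gene symbol alone, with no measured value in the rule, and all 42 were found among the 26485 symbols of the files. RNA came from SW480 and SW620, established human colon cancer cell lines that derive from a primary tumour and a lymph node metastasis of the same patient, grown in DMEM to passage 6. Each line carried either GFP, the mock control labelled Wnt high, or dnLEF1, labelled as Wnt inhibited. LEF1 is a DNA-binding partner of beta-catenin, and dnLEF1 is a shortened form that keeps Wnt target genes from being switched on. The 4 groups, SW480 GFP, SW480 dnLEF1, SW620 GFP and SW620 dnLEF1, had 4 libraries each. The labels name no low-oxygen treatment, and they do not say how dnLEF1 was delivered or whether a line was a clone or a pool. They also do not say whether the libraries of a group came from separate cultures, and each p-value therefore rests on a spread between samples that could be technical.

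As background, cells take glucose in through facilitative transporters, trap it with a hexokinase, commit it to breakdown at phosphofructokinase, and end with pyruvate, which lactate dehydrogenase turns into lactate. When oxygen is plentiful the EGLN enzymes hydroxylate the alpha subunits of the hypoxia-inducible factors (HIF), which are then degraded. When it is short, HIF1A or EPAS1 protein pairs with ARNT and switches on genes for glucose uptake, glycolysis, acid handling, vessel growth and collagen modification. Many colon tumours use much glucose even with oxygen present, and Wnt signalling is known to bear on this in colon cancer cells.

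The libraries held 17181204 to 26153506 reads counted to genes. LEF1 itself stood at 48.8 to 52.9 CPM (a gene's reads scaled by library size, so that libraries can be compared) in SW480 GFP and at 173 to 273 CPM in SW480 dnLEF1, and at 2.82 to 3.92 CPM against 20.1 to 25.6 CPM in SW620. Each dnLEF1 library thus lay above each GFP library of its line, and the counts do not separate the shortened form from the cells' own LEF1. SW620 GFP replicate 3 had 39.4% of its reads set aside for aligning to several places, against 7.61% to 9.46% in the other 15 libraries. Leukocyte, fibroblast and endothelial marker lists summed to at most 24.2, 38.0 and 45.5 CPM in any library, and epithelial markers to at least 7121 CPM. Within SW480 the summed epithelial list (16 genes) went from between 10747 and 12524 CPM with GFP to between 7121 and 8545 CPM with dnLEF1, with 8 of its genes called lower and 2 called higher by edgeR. CDH17 and TFF3 were at 0 with dnLEF1, as were CDX1 and CEACAM6, which were below 1 CPM with GFP as well. CDH1 went from 13.3 ± 2.63 to 39.0 ± 6.83 CPM and ELF3 from 24.8 ± 4.86 to 31.5 ± 1.46 CPM, both called higher. The summed endothelial list (8 genes) went from between 18.7 and 20.8 to between 34.7 and 45.5 CPM, most of it EGFL7. In it VWF went from a mean of 0.870 to 2.98 CPM and ESAM from 2.31 to 3.79 CPM, while PECAM1, CDH5, KDR, TEK and CLDN5 stayed below 1 CPM. In the fibroblast list COL1A1 went from 4.84 to 28.1 CPM, LUM from 7.20 to 0 CPM and PDGFRB from 1.31 to 0.348 CPM, with the rest below 1 CPM. The part of these shifts in the results on SW480 was not tested. In bulk RNA, fewer cells of a type and less RNA per cell cannot be told apart.

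In SW480, dnLEF1 moved the members both ways. Both glucose transporters fell, VEGFA and ADM rose, and 5 of the 11 genes from aldolase to lactate dehydrogenase rose while the other 6 were not called. Of 40 members tested, 13 were higher and 13 lower in SW480 dnLEF1 than in SW480 GFP (edgeR, adjusted p below 0.05). Of all 14426 genes tested in this comparison 48.5% were called (24.2% higher and 24.4% lower), so a call alone sets no member apart here. The median log2 fold change of the 40 was 0.047, beside -0.0013 for all genes tested. Of the 23 transporters and glycolytic enzymes 9 rose and 5 fell. Of the 17 hypoxia genes tested 4 rose and 8 fell. CA12 and BNIP3 had too few reads to be tested in SW480.

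Fewer members were called in SW620, and all but 1 of those calls were falls. Of 40 members tested, 7 were lower and 1 was higher in SW620 dnLEF1 than in SW620 GFP. Of all 13336 genes tested there 8.46% were called, 6.03% higher and 2.43% lower. The median log2 fold change of the 40 was -0.072, beside -0.0044 for all genes tested. EPAS1 and BNIP3 had too few reads to be tested there. The members that fell in both lines were SLC2A1, SLC2A3, HKDC1, EGLN3 and PLOD2, which are 5 of the 13 that fell in SW480 and 5 of the 7 that fell in SW620. How many of all genes fell in both lines was not counted, so this overlap cannot be read as a trait of the members. The other falls in SW620 were HK2 and AK4, and the single rise was ENO2. Without SW620 GFP replicate 3, the library with many multiply aligned reads, the same 7 members were called lower and ENO2 was not called (edgeR adjusted p = 0.0727).

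**Figure D1:**
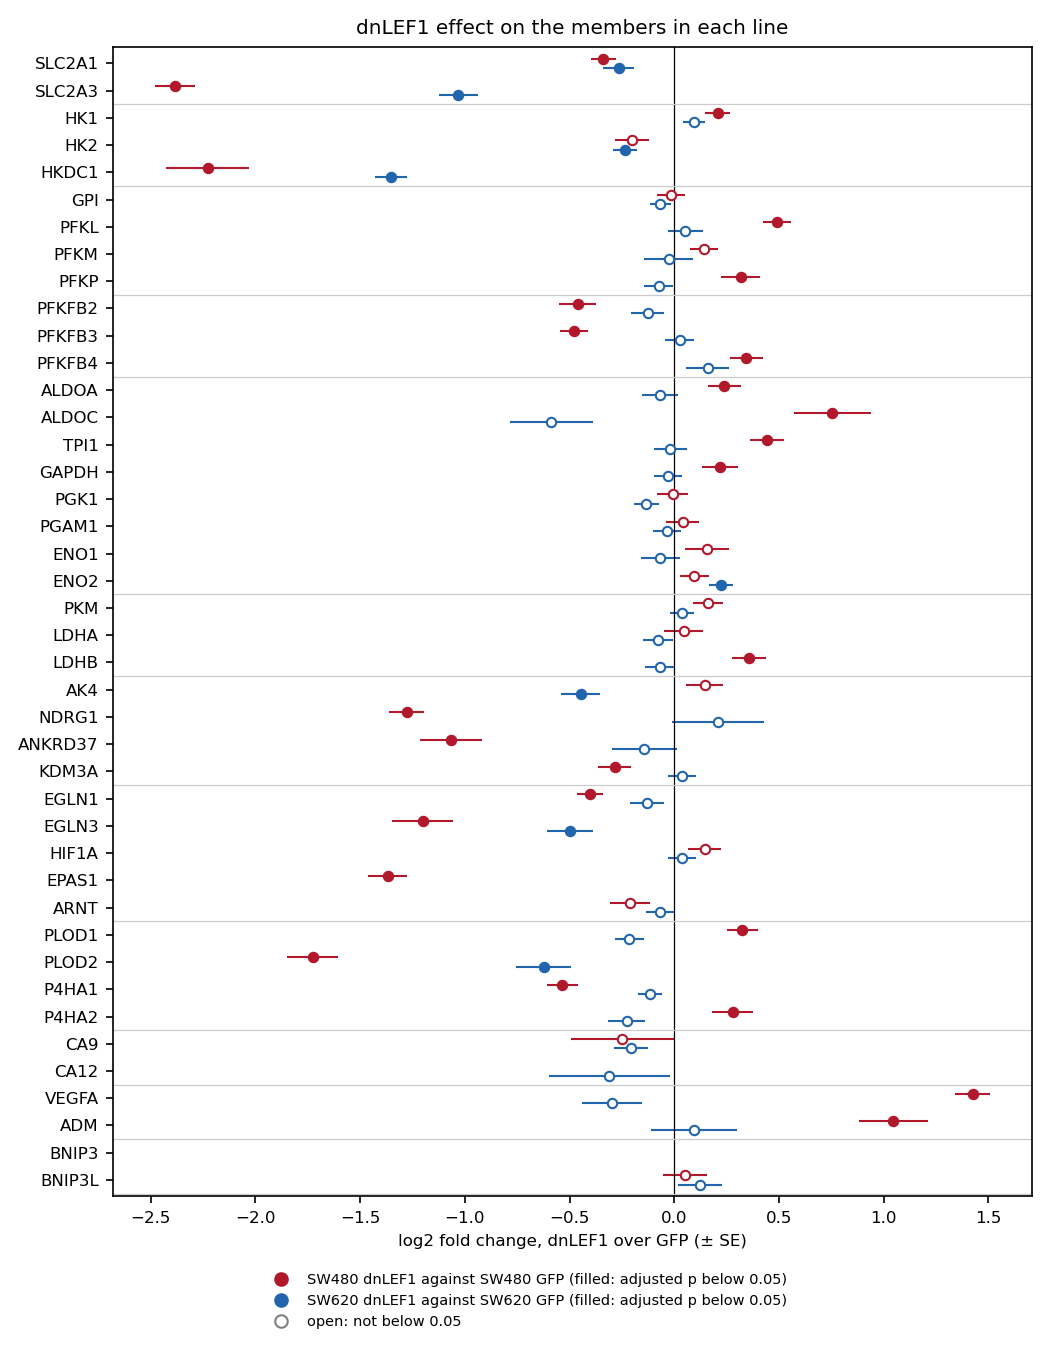
Log2 fold change (± SE) of dnLEF1 over GFP for each member in SW480 (red) and SW620 (blue), 4 libraries a group, in the order of the members' roles; filled points had an edgeR adjusted p below 0.05. SLC2A3, HKDC1, PLOD2 and EGLN3 lie left of 0 in both lines, while VEGFA and ADM lie right of 0 in SW480 and near or left of 0 in SW620.

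Both glucose transporters fell in both lines, SLC2A3 by more than SLC2A1. SLC2A3, the high-affinity transporter GLUT3 (chr12:7919230-8019007 in GRCh38), was counted at 1482, 1425, 1369.5 and 1458 CPM in the 4 SW480 GFP libraries and at 216, 300.4, 287 and 293 CPM in the 4 SW480 dnLEF1 libraries. In SW620 it was counted at 52.0, 40.8, 41.3 and 40.0 CPM with GFP and at 24.1, 19.95, 20.6 and 20.4 CPM with dnLEF1. Every dnLEF1 library was below every GFP library of its line. The fall was 5.22-fold in SW480 (log2 fold change -2.38 ± 0.10, edgeR adjusted p = 1.04e-10). It was 2.05-fold in SW620 (log2 fold change -1.03 ± 0.093, edgeR adjusted p = 7.86e-06). The fall was smaller in SW620 by 1.35 ± 0.14 on the log2 scale (edgeR interaction, adjusted p = 2.33e-07). SLC2A14, a near copy of SLC2A3, lies beside it, and reads that aligned to both were not counted, so the level of SLC2A3 is a lower estimate.

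SLC2A1 is the widely expressed transporter GLUT1. Its libraries stood at 1266, 1266, 1205 and 1212 CPM in SW480 GFP and at 993, 991, 951 and 970.2 CPM in SW480 dnLEF1. In SW620 they stood at 457, 449, 439 and 537 CPM with GFP and at 372, 391, 371 and 432 CPM with dnLEF1. Neither line showed an overlap between its groups. SLC2A1 fell 1.26-fold in SW480 (edgeR adjusted p = 0.000354) and 1.20-fold in SW620 (edgeR adjusted p = 0.0373). The SW620 call was lost without SW620 GFP replicate 2 or 4, or without SW620 dnLEF1 replicate 1, 2 or 3 (edgeR adjusted p = 0.0651, 0.11, 0.11, 0.0705 and 0.0945). The lines' effects differed by 0.077 ± 0.092 on the log2 scale, with an approximate 95% interval of -0.10 to 0.26. Per kilobase of transcript the transporters stood about level in SW480 GFP, where the ratio of SLC2A3 to SLC2A1 was 0.995 to 1.06 in the 4 libraries. With dnLEF1 that ratio was 0.192 to 0.268. In SW620 it was 0.0660 to 0.101 with GFP and 0.0418 to 0.0574 with dnLEF1, so SLC2A1 made up nearly all of the transcripts of this pair there.

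The hexokinases, which phosphorylate glucose and so hold it in the cell, did not move as a set. HKDC1, a hexokinase domain protein encoded next to HK1 on chromosome 10, fell in both lines. It was counted at 3.04, 3.35, 2.67 and 3.69 CPM in SW480 GFP and at 0.656, 0.677, 0.715 and 0.648 CPM in SW480 dnLEF1. The SW620 libraries held more of it, 42.8, 37.7, 36.0 and 36.9 CPM with GFP and 15.7, 15.3, 14.7 and 14.4 CPM with dnLEF1. Every dnLEF1 library lay below every GFP library of its line. Its fall in SW620 was the largest among the 7 members that fell there, 2.55-fold (log2 fold change -1.35 ± 0.074, edgeR adjusted p = 6.54e-08). The fall in SW480 was 4.68-fold (log2 fold change -2.23 ± 0.20, edgeR adjusted p = 4.59e-07) from a level that rested on 289 reads in 4 libraries. The fall was larger in SW480 by 0.88 ± 0.18 on the log2 scale (edgeR interaction, adjusted p = 0.00083).

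HK2, the hexokinase that many tumours raise, was counted at 177, 169, 169.8 and 162 CPM in SW620 GFP and at 147, 131, 149 and 148 CPM in SW620 dnLEF1. The groups did not overlap, and HK2 fell 1.18-fold (edgeR adjusted p = 0.0192), a call that was lost without SW620 GFP replicate 2 (edgeR adjusted p = 0.0624). In SW480 its libraries stood at 75.2, 64.2, 70.3 and 75.8 CPM with GFP and at 62.4, 67.7, 64.0 and 53.7 CPM with dnLEF1, which overlap, and it was not called (log2 fold change -0.20 ± 0.080, edgeR adjusted p = 0.0516). Without SW480 GFP replicate 2 or SW480 dnLEF1 replicate 2 it was called lower there (edgeR adjusted p = 0.0352 and 0.0387). HK1, the hexokinase of most tissues, rose 1.16-fold in SW480 (log2 fold change 0.21 ± 0.060, edgeR adjusted p = 0.0104) and was not called in SW620 (0.095 ± 0.053 on the log2 scale). Per kilobase, the ratio of HK2 to HK1 was 0.319 to 0.398 in SW480 GFP and 0.250 to 0.293 in SW480 dnLEF1. It was 0.851 to 0.964 in SW620 GFP and 0.686 to 0.748 in SW620 dnLEF1. In each line the ratio was lower in all dnLEF1 libraries than in all GFP libraries.

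The next step, at phosphofructokinase and its activator, changed in SW480 and gave no call in SW620. GPI, which isomerises glucose 6-phosphate, was not called in either line (-0.016 ± 0.068 and -0.066 ± 0.050 on the log2 scale). Of the phosphofructokinase subunits, PFKL rose 1.40-fold in SW480 (log2 fold change 0.49 ± 0.068, edgeR adjusted p = 4.07e-05) and PFKP rose 1.25-fold (log2 fold change 0.32 ± 0.094, edgeR adjusted p = 0.0123). PFKM was not called in SW480 (0.14 ± 0.065 on the log2 scale), though it was called higher without SW480 dnLEF1 replicate 4 (edgeR adjusted p = 0.0319). The SW480 libraries did not overlap for PFKL and did for PFKP. The PFKFB enzymes make and break fructose 2,6-bisphosphate, the activator of phosphofructokinase, and their 3 genes split. PFKFB2 fell 1.38-fold (edgeR adjusted p = 0.000553) and PFKFB3 fell 1.39-fold (edgeR adjusted p = 3.71e-05), while PFKFB4 rose 1.27-fold (edgeR adjusted p = 0.00283). Per kilobase, the ratio of PFKFB4 to PFKFB3 was 0.554 to 0.657 in SW480 GFP and 1.05 to 1.16 in SW480 dnLEF1, with no overlap. Which of the pair is higher with dnLEF1 depends on the transcript lengths used. Without division by length PFKFB3 was higher in both groups, at 38.75 and 27.8 CPM against 18.7 and 23.7 CPM for PFKFB4. In SW620 the ratio per kilobase was 0.329 to 0.408 with GFP and 0.349 to 0.446 with dnLEF1. None of the 7 genes from GPI to PFKFB4 was called in SW620 by edgeR, DESeq2 or limma voom, and none had an unadjusted p below 0.05. The effects in the lines differed for PFKL (-0.43 ± 0.11, SW620 less SW480, edgeR interaction, adjusted p = 0.00644) and PFKFB3 (0.51 ± 0.091, edgeR adjusted p = 0.000265).

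From aldolase to lactate dehydrogenase, 5 of the 11 members rose in SW480 and 6 were not called. TPI1, which interconverts the triose phosphates, rose 1.36-fold from 1028 ± 78.2 to 1393 ± 124 CPM (mean ± SD, n = 4, log2 fold change 0.44 ± 0.082, edgeR adjusted p = 0.000522). ALDOA, the main aldolase here, rose 1.18-fold (edgeR adjusted p = 0.0231), and GAPDH, the most abundant member per kilobase in every group, rose 1.16-fold (edgeR adjusted p = 0.0471). The effects of TPI1 in the lines differed by -0.46 ± 0.12, SW620 less SW480 (edgeR interaction, adjusted p = 0.0067). SW480 libraries did not overlap for TPI1 and ALDOA and did for GAPDH. The ALDOA call was lost without SW480 GFP replicate 4, SW480 dnLEF1 replicate 1 or SW480 dnLEF1 replicate 4 (edgeR adjusted p = 0.0636, 0.0613 and 0.0505). The GAPDH call was lost without SW480 GFP replicate 1 or 4 or SW480 dnLEF1 replicate 1, 2 or 4 (edgeR adjusted p = 0.0848, 0.115, 0.118, 0.0614 and 0.071). GAPDH has 65 named pseudogenes and PGAM1 has 13, and reads that aligned to several places were not counted, so these levels are uncertain.

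ALDOC, the aldolase best known from brain, was counted at 2.53, 3.26, 3.71 and 3.15 CPM in SW480 GFP and at 4.99, 4.87, 4.21 and 7.22 CPM in SW480 dnLEF1. All dnLEF1 libraries lay above all GFP libraries, with the gap between the groups narrow beside the spread within dnLEF1. ALDOC rose 1.69-fold (log2 fold change 0.76 ± 0.19, edgeR adjusted p = 0.00396). In SW620 its libraries stood at 3.76, 2.91, 4.15 and 3.53 CPM with GFP and at 2.77, 3.19, 1.81 and 1.95 CPM with dnLEF1, which overlap, and it was not called (-0.59 ± 0.20, edgeR adjusted p = 0.0919). It was called lower there without SW620 dnLEF1 replicate 2 (edgeR adjusted p = 0.0416). The effects in the lines differed by -1.34 ± 0.28 on the log2 scale, SW620 less SW480 (edgeR interaction, adjusted p = 0.00119). PGK1, PGAM1 and ENO1, the steps that follow GAPDH, were not called in SW480 (-0.0068, 0.040 and 0.16 on the log2 scale).

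ENO2, the enolase best known from neurons, was the single member that rose in SW620. Its libraries stood at 66.9, 60.9, 60.8 and 58.7 CPM in SW620 GFP and at 71.9, 74.5, 72.6 and 69.7 CPM in SW620 dnLEF1, with no overlap. The rise was 1.17-fold (log2 fold change 0.22 ± 0.058, edgeR adjusted p = 0.0263). It was called in only 1 of the 8 fits that left out 1 library, the fit without SW620 GFP replicate 1. Without SW620 GFP replicate 2, 3 or 4 the edgeR adjusted p was 0.0934, 0.0727 and 0.0917, and without SW620 dnLEF1 replicate 1, 2, 3 or 4 it was 0.0549, 0.0591, 0.0658 and 0.0501. In SW480 ENO2 stood at 92.1, 85.7, 86.0 and 84.0 CPM with GFP and at 103, 90.2, 88.1 and 89.6 CPM with dnLEF1, which overlap, and it was not called (0.095 ± 0.069 on the log2 scale).

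At the last steps, LDHB rose in SW480 and LDHA did not pass the test. LDHB, whose product favours the turn of lactate back to pyruvate, rose 1.28-fold from 739.5 ± 68.2 to 945 ± 76.1 CPM (n = 4, log2 fold change 0.36 ± 0.082, edgeR adjusted p = 0.00263). LDHA, whose product favours lactate, stood at 1666 ± 161 and 1714 ± 210.3 CPM (0.044 ± 0.095 on the log2 scale, approximate 95% interval -0.14 to 0.23). The ratio of LDHA to LDHB per kilobase was 1.29 to 1.34 in the SW480 GFP libraries and 0.912 to 1.12 in the SW480 dnLEF1 libraries, with no overlap. In SW620 it was 0.892 to 0.941 with GFP and 0.877 to 0.950 with dnLEF1, which overlap. PKM, the pyruvate kinase of these cells, stood at 1915 ± 107 and 2136 ± 147 CPM in SW480 (0.16 ± 0.074 on the log2 scale, edgeR adjusted p = 0.0847). It was called higher there without SW480 dnLEF1 replicate 3 (edgeR adjusted p = 0.0435). In SW620 all 3 were within -0.078 to 0.037 on the log2 scale and not called.

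**Figure D2:**
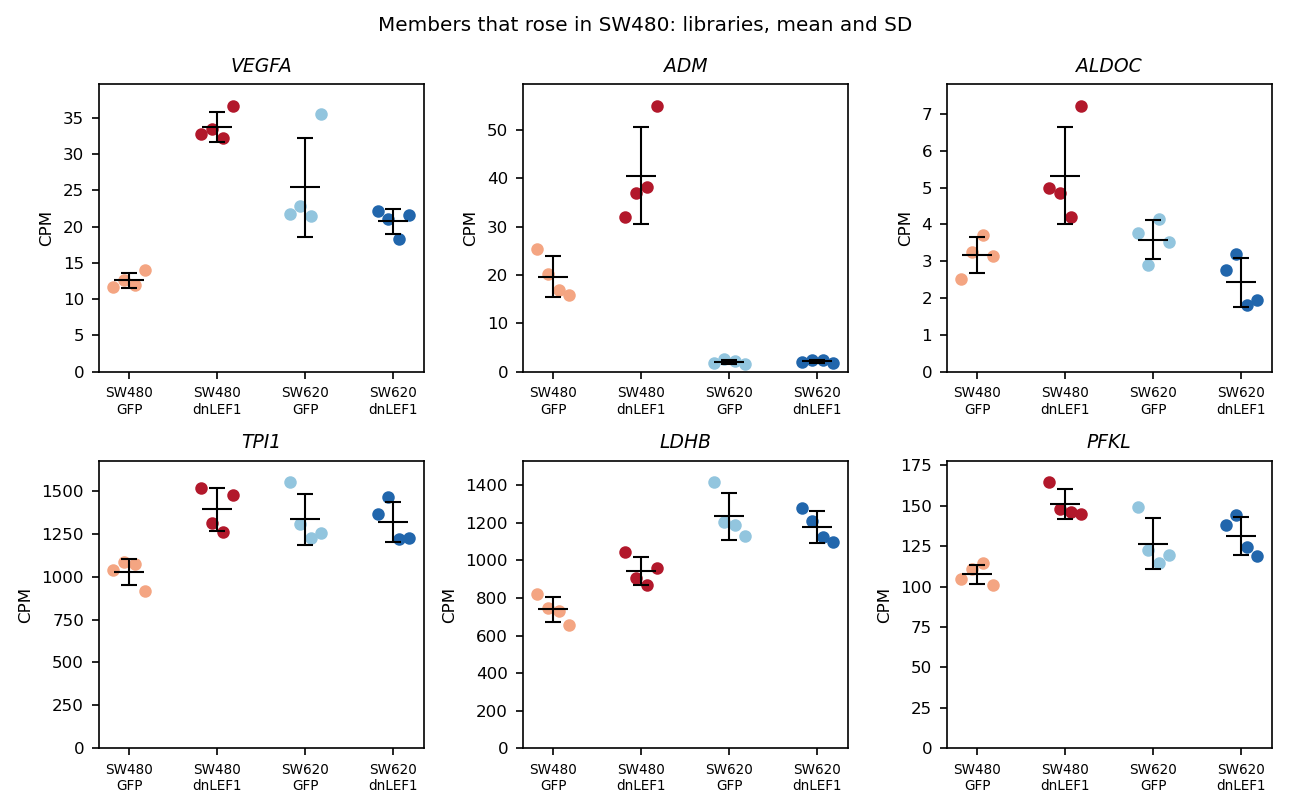
CPM in each library (points) with the group mean and SD (bars) for VEGFA, ADM, ALDOC, TPI1, LDHB and PFKL in the 4 groups of 4 libraries. In SW480 the dnLEF1 libraries sit above the GFP libraries for all 6 genes, and in SW620 the groups overlap.

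Among the hypoxia genes, EPAS1, EGLN1 and EGLN3 fell in SW480, while HIF1A and ARNT were not called in either line. HIF1A, the alpha subunit found in most cells, was counted at 173, 174, 170.3 and 189 CPM in SW480 GFP and at 175, 213, 216 and 176 CPM in SW480 dnLEF1. In SW620 it was counted at 140.4, 156, 164 and 149.9 CPM with GFP and at 153, 145, 172 and 155 CPM with dnLEF1. The groups overlapped in both lines, and the log2 fold changes were 0.15 ± 0.079 in SW480 (approximate 95% interval -0.0081 to 0.30) and 0.035 ± 0.067 in SW620 (-0.10 to 0.17). As background, HIF alpha proteins are controlled mainly by their breakdown, so mRNA levels do not give protein levels.

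EPAS1, the alpha subunit HIF-2 alpha (chr2:46293667-46386697 in GRCh38), was counted at 241, 228, 228 and 231 CPM in SW480 GFP and at 71.4, 101, 101 and 86.3 CPM in SW480 dnLEF1. All dnLEF1 libraries were below all GFP libraries. EPAS1 fell 2.58-fold (log2 fold change -1.37 ± 0.094, edgeR adjusted p = 2.83e-08). SW620 had very few reads of it, at 0.181, 0.369, 0.106 and 0.357 CPM with GFP and at 0.495, 0.552, 0.551 and 0.290 CPM with dnLEF1, which is 22 and 40 reads over 4 libraries each. In the interaction EPAS1 passed the filter through SW480, where it was high. That fit gave a difference of 2.20 ± 0.42 on the log2 scale between the lines (edgeR adjusted p = 0.000506). Its SW620 side rests on the few reads above. Per kilobase, the ratio of EPAS1 to HIF1A was 0.932 to 1.07 in SW480 GFP and 0.312 to 0.375 in SW480 dnLEF1, and at most 0.00291 in any SW620 library.

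ARNT, the partner of both alpha subunits, was counted at 29.3, 27.0, 29.1 and 26.8 CPM in SW480 GFP and at 26.7, 26.3, 23.8 and 19.7 CPM in SW480 dnLEF1. The SW480 groups were apart by a narrow margin, and the test did not call it (log2 fold change -0.21 ± 0.095, edgeR adjusted p = 0.0782). It was called lower without SW480 dnLEF1 replicate 1 (edgeR adjusted p = 0.0359). In SW620 it stood at 34.3, 37.3, 35.2 and 37.1 CPM with GFP and at 33.1, 34.3, 37.1 and 32.6 CPM with dnLEF1, which overlap (-0.069 ± 0.066 on the log2 scale).

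EGLN3, a prolyl hydroxylase that is itself a HIF target, fell in both lines. Its SW480 libraries stood at 6.83, 6.48, 6.05 and 5.61 CPM with GFP and at 2.14, 2.84, 2.99 and 2.87 CPM with dnLEF1. Its SW620 libraries stood at 11.2, 9.78, 9.53 and 9.07 CPM with GFP and at 6.92, 8.10, 6.29 and 6.84 CPM with dnLEF1. There was no overlap in either line. The fall was 2.30-fold in SW480 (log2 fold change -1.20 ± 0.15, edgeR adjusted p = 1.04e-05) and 1.41-fold in SW620 (-0.50 ± 0.11, edgeR adjusted p = 0.0104). The EGLN3 fall was larger in SW480 by 0.71 ± 0.17 on the log2 scale (edgeR interaction, adjusted p = 0.00435). EGLN1, the main prolyl hydroxylase of most cells, fell 1.32-fold in SW480 (edgeR adjusted p = 0.000104) and was not called in SW620 (-0.13 ± 0.081 on the log2 scale).

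The promoters of the members were read to show the DNA letters that HIF is known to bind. The 250 bases before each gene's start were taken from RefSeq on GRCh38.p14 for the 37 members with an entry, and searched on both strands for the HIF core, ACGTG or GCGTG. SLC2A3, PFKFB2, VEGFA, NDRG1 and BNIP3L had no entry. The start is the one RefSeq gives, and 29 of the 37 windows overlap their own gene's extent in GENCODE 44, which holds transcripts that begin further upstream, and 26 touch an exon of their own gene there. EPAS1 and PGK1 are among the windows inside the annotated gene. The core was present in 25 of the 37 (67.6%), and in 11763 of 27305 promoters of all genes with an entry (43.1%). By call in SW480, it was present in 7 of the 12 promoters of members that rose, in 7 of the 10 of members that fell and in 9 of the 13 of members not called. By call in SW620, it was in 3 of the 6 promoters of members that fell and in 19 of the 28 of members not called. Windows of 30 bases around a core are shown for 5 members that fell in SW480, 3 that rose and 2 that were not called there, so that the same letters can be seen under opposite changes. The strand is that of the gene, the letters run 5′ to 3′, and the capitals mark the core on either strand, where CACGT and CACGC are its reverse complement and CACGTG holds it on both strands at once.
EGLN1: ccgcggggccgtggtgtACGTGcagagcgc
PLOD2: caaacagtccagACGTGgggcccaggaggg
P4HA1: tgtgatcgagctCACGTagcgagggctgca
ANKRD37: cagtgtttgtgtACGTGcggccgtggcggg
EPAS1: gggcctgccggcGCGTGcccgcccacacac
ALDOC: ccccggaggagtCACGTagctctgcgacat
ADM: gagcaggagcgcGCGTGgctgaggaaagaa
PLOD1: ggcgggcccagtGCGTGgcagcgggacctg
HK2: aatggGCGTGcgCACGTcactgatccggag
PGK1: aaacggaagccgCACGTctcactagtaccc
The windows lie at EGLN1 chr1:231422288-231422317 on the minus strand, PLOD2 chr3:146161313-146161342 on the minus strand, P4HA1 chr10:73096935-73096964 on the minus strand, ANKRD37 chr4:185396686-185396715 on the plus strand and EPAS1 chr2:46297278-46297307 on the plus strand. Those of the other genes lie at ALDOC chr17:28576906-28576935 on the minus strand, ADM chr11:10304960-10304989 on the plus strand, PLOD1 chr1:11934680-11934709 on the plus strand, HK2 chr2:74834067-74834096 on the plus strand and PGK1 chrX:78104053-78104082 on the plus strand. The first 5 are from genes that fell in SW480, and ALDOC, ADM and PLOD1 rose there. A match describes the letters and does not show that HIF was bound.

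The same promoters were searched on both strands for the TCF/LEF letters CTTTGAT and CTTTGAA, to which LEF1 is known to bind. They were in none of the 37 member promoters and in 6.03% of all promoters. HKDC1, which fell in both lines, is shown over its 250 bases, at chr10:69220082-69220331 on the plus strand in GRCh38.p14, because it had neither set of letters there. No letters are in capitals.
HKDC1: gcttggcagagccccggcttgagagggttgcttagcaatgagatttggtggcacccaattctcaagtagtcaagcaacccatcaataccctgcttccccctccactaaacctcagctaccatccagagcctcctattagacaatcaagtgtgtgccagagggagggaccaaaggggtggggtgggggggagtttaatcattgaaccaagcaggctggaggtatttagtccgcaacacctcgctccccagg
That the letters are missing from this window says nothing about sites elsewhere.

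The collagen hydroxylases split by enzyme and by isoform in SW480. PLOD2, a lysyl hydroxylase that prepares collagen for cross-linking, was counted at 9.83, 11.5, 10.6 and 12.5 CPM in SW480 GFP and at 3.41, 3.60, 3.20 and 3.15 CPM in SW480 dnLEF1. The SW620 libraries stood at 9.21, 11.5, 13.9 and 9.60 CPM with GFP and at 7.47, 6.75, 6.88 and 7.46 CPM with dnLEF1. In both lines all dnLEF1 libraries were lower than all GFP libraries. PLOD2 fell 3.31-fold in SW480 (log2 fold change -1.73 ± 0.12, edgeR adjusted p = 3.37e-08) and 1.54-fold in SW620 (-0.62 ± 0.13, edgeR adjusted p = 0.00743). The fall was larger in SW480 by 1.11 ± 0.18 on the log2 scale (edgeR interaction, adjusted p = 8.15e-05). Its relative PLOD1 rose 1.25-fold in SW480 (log2 fold change 0.33 ± 0.072, edgeR adjusted p = 0.00192) and was not called in SW620 (-0.21 ± 0.069, edgeR adjusted p = 0.077). The SW620 groups of PLOD1 did not overlap, with dnLEF1 lower. PLOD1 was called lower there by DESeq2 (DESeq2 adjusted p = 0.0409) and by edgeR with the replicate number in the fit (edgeR adjusted p = 0.012).

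P4HA1, a catalytic subunit of collagen prolyl hydroxylase, was counted at 50.8, 52.2, 49.9 and 44.7 CPM in SW480 GFP and at 35.9, 35.9, 31.1 and 33.3 CPM in SW480 dnLEF1. The groups did not overlap, and it fell 1.45-fold (log2 fold change -0.53 ± 0.075, edgeR adjusted p = 4.63e-05). In SW620 it stood at 66.7, 62.8, 69.0 and 68.7 CPM with GFP and at 62.8, 59.2, 64.5 and 59.9 CPM with dnLEF1, which overlap, and it was not called (-0.12 ± 0.059 on the log2 scale). P4HA2, the other catalytic subunit, rose 1.21-fold in SW480 (log2 fold change 0.28 ± 0.10, edgeR adjusted p = 0.0332). That call was lost without SW480 GFP replicate 2, 3 or 4 (edgeR adjusted p = 0.0527, 0.095 and 0.102) and without SW480 dnLEF1 replicate 1 or 4 (0.0959 and 0.0532). In SW620 the P4HA2 groups did not overlap, with dnLEF1 lower, and P4HA2 was not called (-0.23 ± 0.087 on the log2 scale, edgeR adjusted p = 0.148). Within each library, which no scaling can alter, the ratio of P4HA2 to P4HA1 per kilobase was 0.770 to 1.01 in SW480 GFP and 1.38 to 1.62 in SW480 dnLEF1. In SW620 it was 0.107 to 0.136 with GFP and 0.104 to 0.121 with dnLEF1. The order of the pair depends on the transcript lengths used. Without division by length P4HA2 was already the higher in SW480 GFP, at 70.4 against 49.4 CPM for P4HA1.

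**Figure D3:**
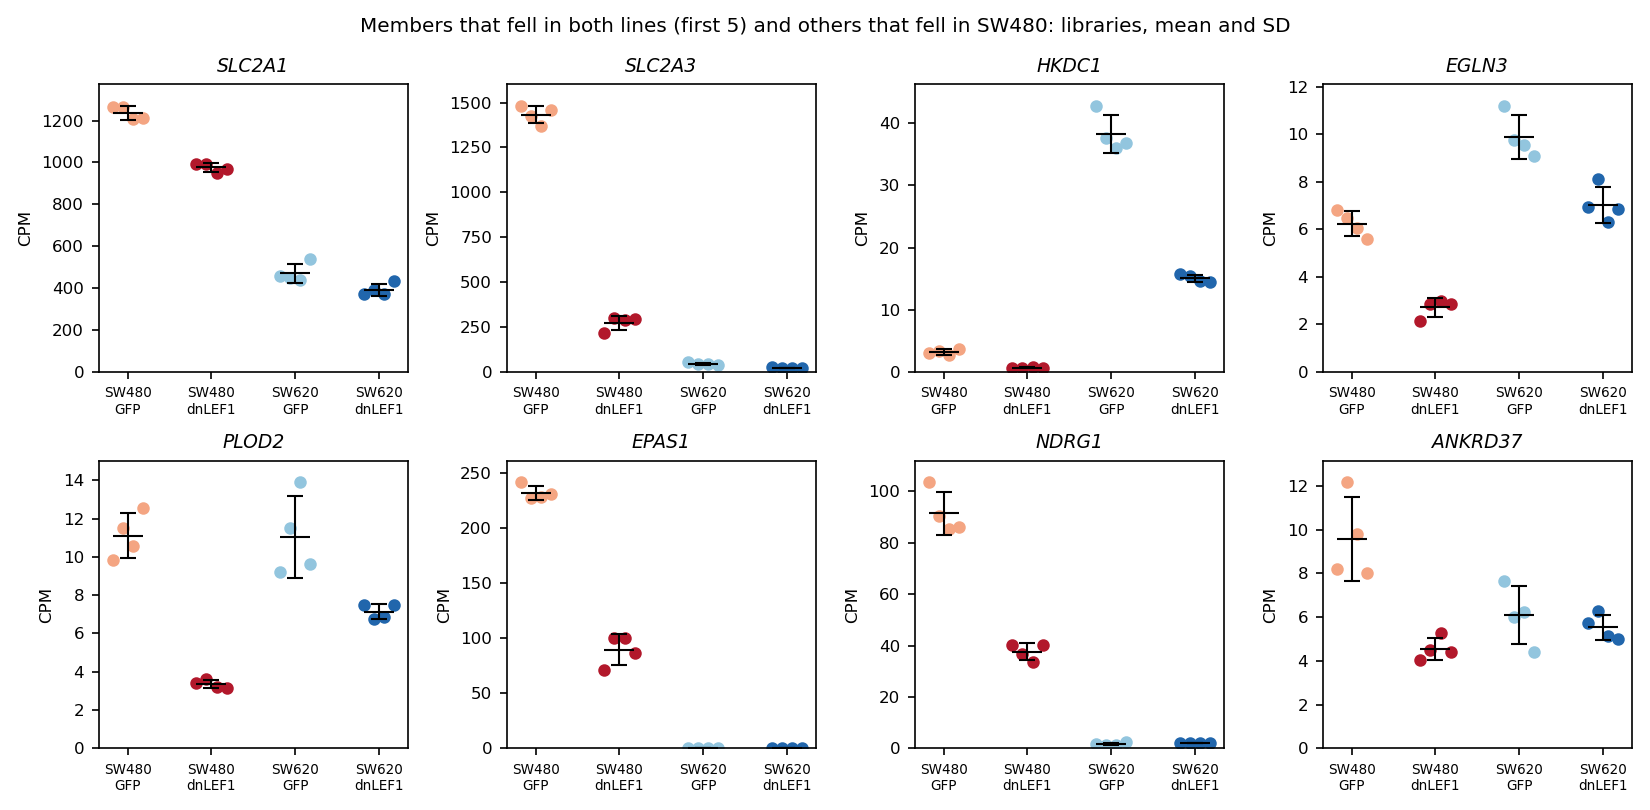
CPM in each library (points) with the group mean and SD (bars) for 8 members that fell in SW480, in the 4 groups of 4 libraries; SLC2A1, SLC2A3, HKDC1, EGLN3 and PLOD2 fell in SW620 as well. SLC2A3, EPAS1 and NDRG1 are high in SW480 GFP, lower in SW480 dnLEF1 and close to the axis in SW620.

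The secreted vascular factors rose in SW480, against the direction of most hypoxia genes called there. VEGFA, the main growth factor for blood vessels (chr6:43770184-43786487 in GRCh38), was counted at 11.7, 12.7, 11.95 and 13.95 CPM in SW480 GFP and at 32.7, 33.4, 32.2 and 36.6 CPM in SW480 dnLEF1. All dnLEF1 libraries lay far above all GFP libraries. VEGFA rose 2.69-fold (log2 fold change 1.43 ± 0.083, edgeR adjusted p = 5.37e-09). The SW620 libraries stood at 21.8, 22.9, 21.4 and 35.5 CPM with GFP and at 22.2, 21.1, 18.2 and 21.5 CPM with dnLEF1. The groups overlapped, with SW620 GFP replicate 4 above the other libraries, and it was not called (-0.30 ± 0.14, edgeR adjusted p = 0.268). The effects differed by -1.72 ± 0.18 on the log2 scale, SW620 less SW480 (edgeR interaction, adjusted p = 2.8e-07).

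ADM, the vessel-dilating peptide adrenomedullin, was counted at 25.4, 20.1, 16.997 and 15.9 CPM in SW480 GFP and at 31.9, 37.0, 38.2 and 54.96 CPM in SW480 dnLEF1. Again the groups were apart, and SW480 dnLEF1 replicate 4 stood above the rest. ADM rose 2.06-fold (log2 fold change 1.05 ± 0.16, edgeR adjusted p = 0.000125). Its level was low in SW620, at 1.72, 2.63, 2.18 and 1.56 CPM with GFP and at 1.93, 2.52, 2.44 and 1.78 CPM with dnLEF1, which overlap (0.094 ± 0.21 on the log2 scale). The difference between the lines was -0.95 ± 0.31 (edgeR interaction, adjusted p = 0.0242). That call was lost without SW620 GFP replicate 2 or SW620 dnLEF1 replicate 4 (edgeR adjusted p = 0.0828 and 0.0589) and with limma voom (0.103).

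NDRG1, a stress and differentiation gene that HIF is known to induce, was counted at 104, 90.5, 85.2 and 86.3 CPM in SW480 GFP and at 40.2, 36.6, 33.5 and 40.1 CPM in SW480 dnLEF1. All dnLEF1 libraries lay below all GFP libraries, and NDRG1 fell 2.43-fold (log2 fold change -1.28 ± 0.084, edgeR adjusted p = 1.88e-08). SW620 had little of it, at 1.81, 1.29, 1.22 and 2.41 CPM with GFP and at 2.03, 1.90, 2.01 and 1.91 CPM with dnLEF1, which overlap (0.21 ± 0.22 on the log2 scale). The effects differed by 1.49 ± 0.21 on the log2 scale (edgeR interaction, adjusted p = 1.54e-05). ANKRD37, a small ankyrin-repeat protein and HIF target, was counted at 8.22, 12.2, 9.81 and 8.02 CPM in SW480 GFP and at 4.02, 4.49, 5.26 and 4.399 CPM in SW480 dnLEF1. The groups did not overlap, and it fell 2.09-fold (log2 fold change -1.07 ± 0.15, edgeR adjusted p = 4.39e-05). Its SW620 libraries stood at 7.66, 6.00, 6.23 and 4.42 CPM with GFP and at 5.74, 6.26, 5.11 and 5.02 CPM with dnLEF1, which overlap. Its exons overlap those of UFSP2 on the other strand, and TPI1, PFKFB2, P4HA2 and HIF1A are among 10 other members whose exons overlap another gene's. The strand setting of the counting is not given in the sources used here, so reads of opposite-strand pairs cannot be told apart.

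AK4, a mitochondrial adenylate kinase, fell in SW620 and was not called in SW480. It was counted at 65.8, 51.7, 54.9 and 46.8 CPM in SW620 GFP and at 42.7, 36.8, 38.9 and 42.1 CPM in SW620 dnLEF1. No library of one group reached the other, and it fell 1.36-fold (log2 fold change -0.45 ± 0.092, edgeR adjusted p = 0.00653). In SW480 it was counted at 122, 99.0, 96.9 and 93.0 CPM with GFP and at 119, 117, 118 and 101 CPM with dnLEF1, which overlap (0.15 ± 0.089 on the log2 scale, edgeR adjusted p = 0.189). Without SW480 GFP replicate 1 it was called higher there (edgeR adjusted p = 0.0167). The effects differed by -0.59 ± 0.14 on the log2 scale, SW620 less SW480 (edgeR interaction, adjusted p = 0.00272). KDM3A, a histone demethylase that HIF induces, fell 1.22-fold in SW480 (edgeR adjusted p = 0.00805) and was not called in SW620 (0.038 ± 0.068 on the log2 scale).

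The carbonic anhydrases and mitophagy receptors gave no call within a line. CA9, a surface enzyme that helps cells export acid and a common hypoxia marker, was counted at 1.42, 0.805, 1.33 and 1.41 CPM in SW480 GFP and at 1.31, 0.931, 1.01 and 0.926 CPM in SW480 dnLEF1, which overlap (-0.25 ± 0.25 on the log2 scale). In SW620 it stood at 31.0, 27.6, 26.2 and 27.7 CPM with GFP and at 23.4, 27.1, 21.9 and 25.4 CPM with dnLEF1, which also overlap (-0.21 ± 0.081, edgeR adjusted p = 0.157). CA12, the related enzyme, gave 12 reads in SW480 GFP and 47 in SW480 dnLEF1. It was below the filter of the main test. It was called higher in each of the 7 alternatives that tested it. Fits that left out a library admitted it through the dnLEF1 libraries, where it was higher, and all 7 rest on these few reads. These calls are therefore no support for a rise. BNIP3L, a receptor that marks mitochondria for removal, was not called in either line (0.051 ± 0.10 and 0.12 ± 0.11 on the log2 scale). BNIP3, its relative, gave only 7, 12, 5 and 26 reads in SW480 GFP, SW480 dnLEF1, SW620 GFP and SW620 dnLEF1. The annotation names 44 pseudogenes of BNIP3, and reads that aligned to several places were not counted, so its level is uncertain.

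Tested directly, the dnLEF1 effect differed between the lines for 23 of 41 members. Its log2 fold change, taken with its sign, was higher in SW620 than in SW480 for 12 and lower for 11 (edgeR interaction, adjusted p below 0.05). Without SW620 GFP replicate 3 it was higher for 12 and lower for 12. Of all 14926 genes tested in this way 28.5% were called, 16.2% higher and 12.3% lower. The 12 with a higher log2 fold change in SW620 were SLC2A3, HKDC1, PFKFB2, PFKFB3, EGLN1, EGLN3, PLOD2, P4HA1, NDRG1, ANKRD37, KDM3A and EPAS1. All of them fell in SW480, so higher here means a smaller fall or none in SW620 and not a stronger response. The 11 with a lower log2 fold change in SW620 were PFKL, PFKP, ALDOC, TPI1, LDHB, PLOD1, P4HA2, VEGFA and ADM, which rose in SW480, and AK4 and CA12. EPAS1 in SW620 and CA12 in SW480 had too few reads to be tested within those lines. Each entered the interaction through the line where it was higher, so both differences rest on few reads in the other line. EGLN1 (0.28 ± 0.10, edgeR adjusted p = 0.0455) kept its call in 8 of 22 alternatives and PFKFB2 (0.34 ± 0.12, edgeR adjusted p = 0.0396) in 9 of 22. Leaving out 1 library ended the EGLN1 call in 11 of 16 cases, all except SW480 GFP replicate 2, SW480 dnLEF1 replicate 3, SW620 GFP replicate 3 and SW620 dnLEF1 replicates 2 and 4 (edgeR adjusted p = 0.0535 to 0.124 over the 11). It ended the PFKFB2 call in 10 of 16 cases, all except SW480 GFP replicate 1, SW480 dnLEF1 replicates 2 and 3, SW620 GFP replicate 3 and SW620 dnLEF1 replicates 1 and 2 (edgeR adjusted p = 0.0541 to 0.0967 over the 10). The PFKP call (-0.39 ± 0.12, edgeR adjusted p = 0.0239) ended without SW480 GFP replicate 4, SW480 dnLEF1 replicate 1, SW620 GFP replicate 1 or SW620 dnLEF1 replicate 4 (edgeR adjusted p = 0.0581, 0.0552, 0.0588 and 0.0506). Those of CA12 and KDM3A ended without SW480 dnLEF1 replicate 2 and SW620 dnLEF1 replicate 3, respectively (edgeR adjusted p = 0.0514 and 0.0683). The interaction uses the same libraries as the within-line comparisons and is no separate evidence for them.

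The GFP libraries showed that the lines differ widely in these genes before any dnLEF1 effect. Of 41 members tested, 17 were higher and 17 lower in SW620 GFP than in SW480 GFP (edgeR, adjusted p below 0.05), and 18 and 17 without SW620 GFP replicate 3, when PFKFB3 was also called. Of all 14350 genes tested 78.0% were called, 37.7% higher and 40.3% lower. These libraries are the controls of the within-line comparisons, so their values are set beside the others and not correlated with them. EPAS1 stood 881-fold lower in SW620 GFP, a fitted ratio that rests on 22 reads there (log2 fold change -9.78 ± 0.13, edgeR adjusted p = 3.99e-16). NDRG1 stood 53.7-fold lower (-5.75 ± 0.14, edgeR adjusted p = 7.42e-14) and SLC2A3 33.1-fold lower (-5.05 ± 0.090, edgeR adjusted p = 3.02e-15). These 3 genes also fell in SW480 with dnLEF1, in a comparison that shares the SW480 GFP libraries. Of the genes next in size, ADM and P4HA2 rose in SW480 with dnLEF1 and BNIP3L was not called.

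ADM was 9.75-fold lower in SW620 GFP (-3.29 ± 0.19, edgeR adjusted p = 6.22e-10), BNIP3L 6.26-fold lower (-2.65 ± 0.10, edgeR adjusted p = 8.96e-12) and P4HA2 5.36-fold lower (-2.42 ± 0.10, edgeR adjusted p = 3.06e-11). Higher in SW620 GFP were CA9, by 22.4-fold (4.49 ± 0.14, edgeR adjusted p = 8.43e-13), and HKDC1, by 11.9-fold (3.58 ± 0.11, edgeR adjusted p = 5.7e-13). HK2 was 2.36-fold higher (1.24 ± 0.062, edgeR adjusted p = 1.68e-10). In every SW620 GFP library CA9 and HKDC1 were above every SW480 GFP library, and EPAS1, NDRG1, SLC2A3 and ADM were below. The enzymes from aldolase to lactate dehydrogenase leaned to SW620, where 7 of 11 were higher, 1 (ENO2) was lower and 3 were not called. Their sizes were small, from 1.16-fold for GAPDH to 1.66-fold for LDHB among the 7. ALDOA was not called, and was called lower in SW620 GFP without SW620 GFP replicate 1 (edgeR adjusted p = 0.0177). The calls of GAPDH and LDHA were lost without SW480 GFP replicate 4 (edgeR adjusted p = 0.0595 and 0.0757) and without SW620 GFP replicate 1 (0.062 and 0.0682).

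**Figure D4:**
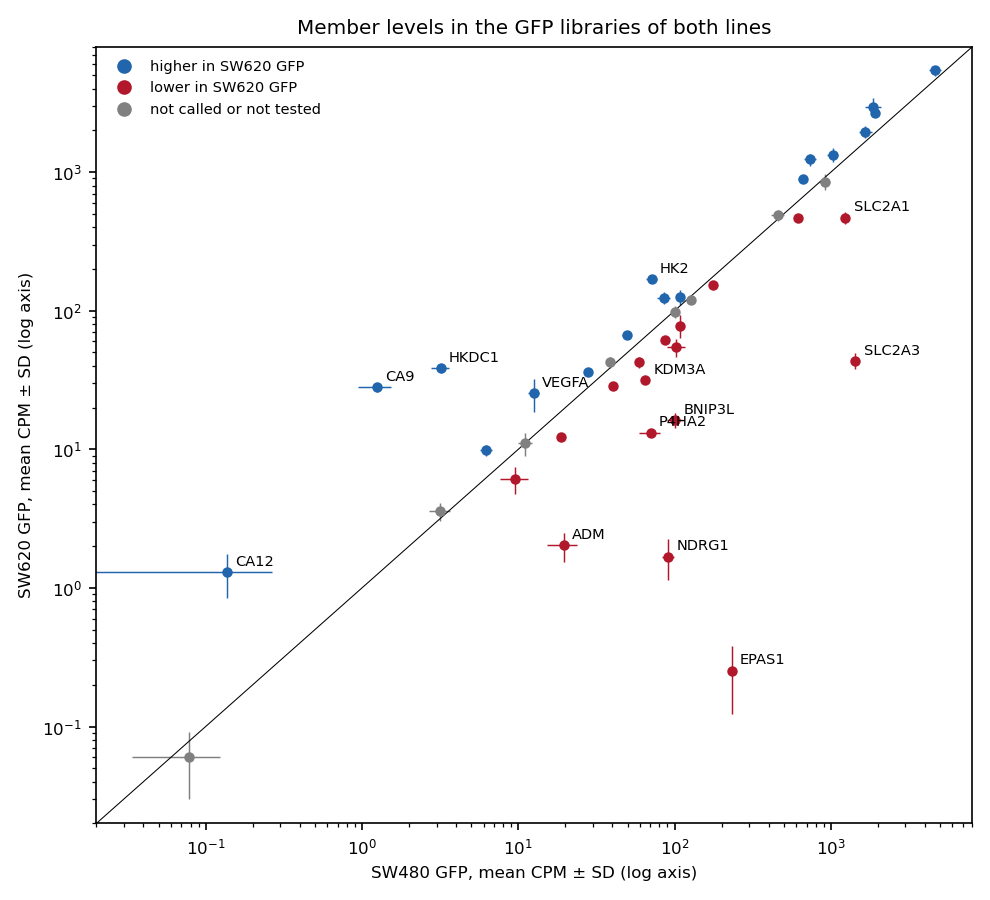
Mean CPM (± SD, 4 libraries) of each member in SW480 GFP (x axis, log) and SW620 GFP (y axis, log); blue members were higher and red members lower in SW620 GFP (edgeR adjusted p below 0.05), and the line marks equal levels. The horizontal bar of CA12 reaches 0 and runs off the log axis. The glycolytic enzymes lie close to the line at the top right, while EPAS1, NDRG1, SLC2A3 and ADM lie far below it and CA9 and HKDC1 far above.

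Levels of different members can be set side by side only per kilobase of transcript. On that scale GAPDH led with 3616 ± 331 CPM per kilobase in SW480 GFP and 4213 ± 337 in SW620 GFP (mean ± SD, n = 4). ENO1 followed with 1049 ± 121 and 1665 ± 272. PKM stood at 831 ± 46.3 and 1153 ± 64.1, and TPI1 at 761 ± 57.9 and 987 ± 109. These are 4 of the steps from triose phosphate to pyruvate, and others were lower, with PGAM1 at 255 ± 24.5 and 271 ± 24.3 and PGK1 at 137 ± 8.35 and 186 ± 12.6. The transporter SLC2A1 stood at 366 ± 9.84 and 139 ± 13.2 CPM per kilobase, and HK1, the most abundant hexokinase on this scale, at 35.2 ± 0.929 and 33.2 ± 1.36. SLC2A1 thus stood between PGAM1 and TPI1 in SW480 GFP, and below PGK1 in SW620 GFP, and HK1 was below all of these in both lines. Some of these orders depend on the transcript lengths used. Without division by length HK2 was above HK1 in SW620 GFP, at 169 against 120 CPM. Likewise PGK1 was above PGAM1 in SW480 GFP, at 659 against 460 CPM. Of the HIF subunits, HIF1A stood at 44.8 ± 2.19 and 38.7 ± 2.51 CPM per kilobase and ARNT at 5.95 ± 0.291 and 7.64 ± 0.308.

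Genes near a member on the chromosome were looked at because earlier results of these data had shown stretches of neighbouring genes moving together. For each member the median log2 fold change was taken over up to 24 genes, the nearest 12 on either side with a mean log2 CPM above 2. In SW480 these local medians ran from -0.38 to 0.26, and in SW620 from -0.10 to 0.044. Of the 13 members that rose in SW480, 8 had a local median above 0, and of the 13 that fell, 10 had a local median below 0. Members not called also had local medians on either side of 0, such as PGAM1 (-0.22) and ENO2 (0.24). The shares over all genes were not counted, so these counts cannot be read as calls following their region. GAPDH changed by 0.22 beside a local median of 0.26, and ALDOA by 0.24 beside 0.21, so these rises were about the size of those around them. Other members had small local medians, among them SLC2A3 (-2.38 beside -0.042), PLOD2 (-1.73 beside 0.085) and VEGFA (1.43 beside 0.15). PGK1 and AK4 were not called and had local medians of -0.38 and -0.37. For calls of small size, the part of such regional shifts was not tested.

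**Figure D5:**
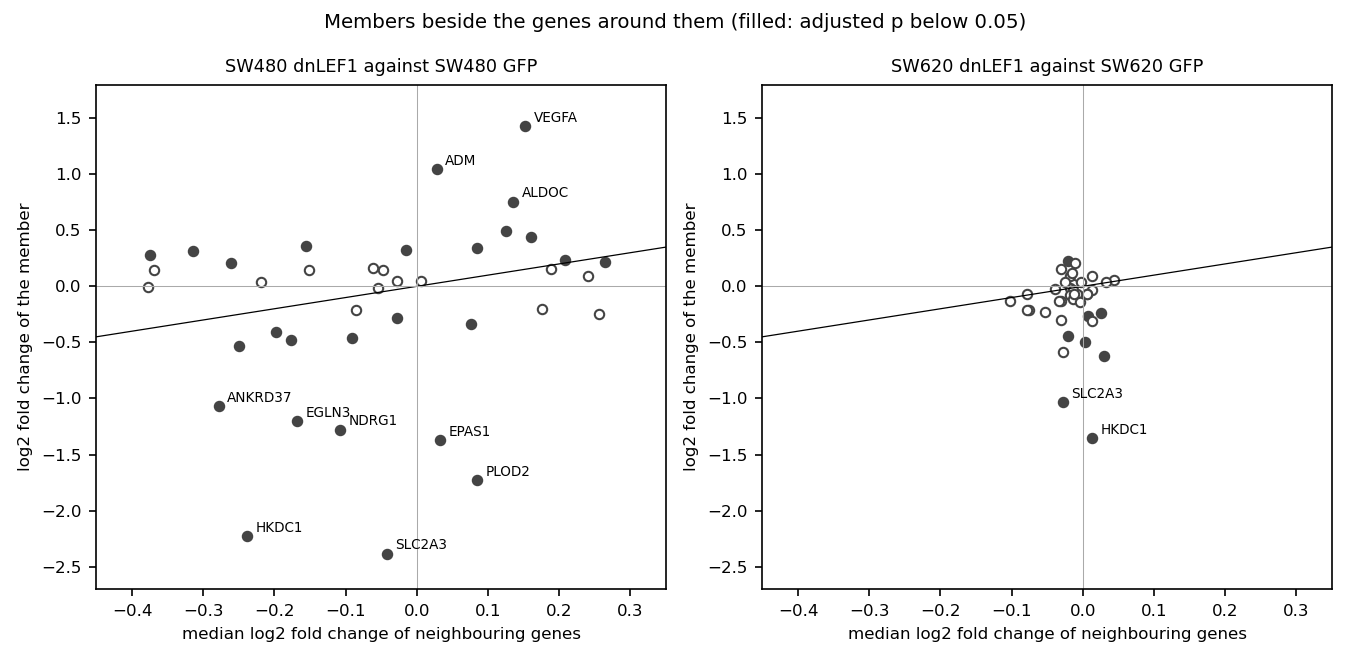
Log2 fold change of each member (y axis) against the median log2 fold change of up to 24 neighbouring genes (x axis) in SW480 (left) and SW620 (right); filled members had an edgeR adjusted p below 0.05 and the sloping line marks equality on axes of different scale. Members with large changes lie far from that line, and the local medians span a wider range in SW480 (-0.38 to 0.26) than in SW620 (-0.10 to 0.044).

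The wider pathways around the members were followed with gene lists outside the 42. Of 34 other HIF target genes tested in SW480, 13 rose and 7 fell, with a median log2 fold change of 0.12, where 24.2% of all genes tested rose and 24.4% fell. Called genes of large size with at least 5 CPM are named from each list. ANGPTL4, a secreted regulator of fat metabolism, rose 10.5-fold from 0.719 ± 0.424 to 7.77 ± 1.85 CPM (n = 4, edgeR adjusted p = 3.31e-07) and LOXL2, a collagen cross-linking enzyme, rose 2.17-fold (edgeR adjusted p = 4.12e-07). The falls of greatest size were IGFBP3 at 4.38-fold (edgeR adjusted p = 5.92e-10), RORA at 2.88-fold (edgeR adjusted p = 7.29e-07) and KDM4C at 1.68-fold (edgeR adjusted p = 1.29e-06). In SW620, 1 of 31 rose and 4 fell, where 6.03% of all genes tested rose and 2.43% fell. DDIT4, an inhibitor of growth signalling, fell 2.30-fold there (edgeR adjusted p = 0.00175), GPRC5A fell 1.39-fold (edgeR adjusted p = 0.00995) and HILPDA, a lipid droplet protein, rose 1.25-fold (edgeR adjusted p = 0.0451). ERO1A and LOX were the other falls in SW620.

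Of 14 other genes of glycolysis and glucose transport tested in SW480, 6 rose and 1 fell. The counts of this and the following lists stand beside 24.2% of all genes rising and 24.4% falling in SW480, and 6.03% and 2.43% in SW620. SLC2A12, another glucose transporter, rose 4.48-fold from 3.89 ± 0.472 to 17.4 ± 3.69 CPM (n = 4, edgeR adjusted p = 4.52e-08), and SLC2A6 rose 1.47-fold (edgeR adjusted p = 3.52e-05). These transporters went the opposite way to SLC2A1 and SLC2A3. The 1 fall in the list was SLC2A13, at under 5 CPM and named after its value was seen, which fell 3.19-fold. What SLC2A13 carries was not examined, so it is not counted here as a glucose transporter. Of 10 tested in SW620, GALM rose. Of 7 gluconeogenesis genes tested in SW480, 5 rose and 1 fell. FBP1, which reverses the phosphofructokinase step, rose 8.83-fold from 1.43 ± 0.340 to 12.7 ± 0.875 CPM (n = 4, edgeR adjusted p = 6.84e-10). In SW620 edgeR called none of the 7 tested, none had an unadjusted p below 0.05, and DESeq2 and limma voom called none. Among the pentose phosphate genes, TKT and TALDO1 were among those that rose in SW480, and PGD fell. Of 10 tested in SW620, PRPS2 fell. Of 19 genes of glycogen and galactose use tested in each line, 8 rose in SW480, GBE1 was among those that fell there, and PGM2L1 rose in SW620. Of 12 oxygen-sensing genes tested in SW480, TCEB1 and TCEB2 rose and EP300, SIAH2, CUL2 and VHL fell. EP300, a co-activator that HIF recruits, fell 1.41-fold (edgeR adjusted p = 0.00357). TCEB1, TCEB2, CUL2 and VHL are parts of the ligase that marks HIF alpha subunits for breakdown. In SW620 edgeR called none of the 12, with 1 at an unadjusted p below 0.05, and DESeq2 and limma voom called none.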

How the data were processed

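Polyadenylated RNA from the 16 libraries was deposited by the authors as raw read counts per gene symbol. Reads were trimmed, aligned and counted with Trimmomatic, TopHat2 and HTSeq on hg38, and DESeq2 was used, per the submitters' processing notes. No label or file header names the annotation or the strand setting. The 5 HTSeq summary lines, 20.0% to 50.5% of each library's total, were left out. Each comparison of 2 groups was fitted on its own 8 libraries with edgeR 4.0.16 (quasi-likelihood test, TMM scaling, filterByExpr, R 4.3.3), and the difference between lines on all 16. A gene was called at a Benjamini-Hochberg adjusted p below 0.05 over all genes tested. The method was tested on simulated data in which a small part of the genes changed, equally up and down. Those data do not show how it behaves where as many genes change as in SW480 or between the GFP lines. SE is the log2 fold change over the root of F, and approximate 95% intervals use 1.96 SE. CPM used TMM library sizes over the 16 libraries. Levels per kilobase used Ensembl canonical transcripts (GENCODE 44), not the summed exons first planned. Neighbours came from the 87.4% of symbols placed in GENCODE 44. The precision is that of 4 libraries a group. No 2 libraries of a group agreed within sampling noise. Closest in SW480 were replicates 2 and 3, with a chi-square per degree of freedom of 1.99 with GFP and 2.33 with dnLEF1. The other pairs of those groups lay at 6.78 to 14.5 and at 13.3 to 22.2. Whether these close pairs were separate samples is not known, and they narrow the spread behind the SW480 p-values. The members and gene lists were chosen with earlier results of these data known. Every member may be named. Values per library are given for the 10 called members of largest change (6 between lines) with at least 5 CPM, and for HIF1A, EPAS1 and ARNT. Alternatives were RLE and upper-quartile scaling, DESeq2 1.42.0, limma voom (limma 3.58.1), no filter, a fit of all 16 libraries, a replicate block and leaving out each library. Some genes of the pathway lists are not reported here.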

Additional observations from a re-analysis of the deposited data

Results flagged for a closer look

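In 17 of 168 sets of 4 libraries (42 genes in 4 groups) 1 library stood apart from the other 3 by more than a 95% limit for chance gaps, and chance alone flags about 1 set in 20. In 11 of the 17 the library was replicate 1 of its group. Among the glycolytic genes, replicate 1 was high for PFKL (164 CPM), PGK1 (727 CPM) and ENO2 (103 CPM) in SW480 dnLEF1, for SLC2A3 (52.0 CPM), PFKM (100.1 CPM) and PGAM1 (553 CPM) in SW620 GFP, and for SLC2A3 (24.1 CPM) and PFKP (129 CPM) in SW620 dnLEF1. SLC2A3 was low in SW480 dnLEF1 replicate 1 (216 CPM), HK1 in SW480 GFP replicate 4 (122 CPM) and HK2 in SW620 dnLEF1 replicate 2 (131 CPM). Among the hypoxia genes, P4HA2 was high in SW480 dnLEF1 replicate 1 (96.4 CPM), VEGFA in SW620 GFP replicate 4 (35.5 CPM) and BNIP3 in SW620 GFP replicate 3 (0.106 CPM). CA9 was low in SW480 GFP replicate 2 (0.805 CPM), AK4 in SW480 dnLEF1 replicate 4 (101 CPM) and BNIP3L in SW620 dnLEF1 replicate 1 (14.7 CPM).

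The 23 members whose dnLEF1 effect differed between the lines (edgeR interaction) are listed with the effect in SW620 less that in SW480, on the log2 scale. Among the transporters and glycolytic enzymes the difference was above 0 for SLC2A3 (1.35), HKDC1 (0.88), PFKFB2 (0.34) and PFKFB3 (0.51). It was below 0 for PFKL (-0.43), PFKP (-0.39), ALDOC (-1.34), TPI1 (-0.46) and LDHB (-0.42). Among the HIF subunits and prolyl hydroxylases it was above 0 for EPAS1 (2.20), EGLN1 (0.28) and EGLN3 (0.71). Of the collagen hydroxylases it was above 0 for PLOD2 (1.11) and P4HA1 (0.42), and below 0 for PLOD1 (-0.54) and P4HA2 (-0.50), so each enzyme pair split. It was below 0 for VEGFA (-1.72), ADM (-0.95), CA12 (-2.21) and AK4 (-0.59), and above 0 for NDRG1 (1.49), ANKRD37 (0.93) and KDM3A (0.32). EPAS1 and CA12 had too few reads to be tested within SW620 and SW480, respectively.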

How the results depend on the processing

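No member called in any fit changed direction. Member results that were tested in the main fit and called in at least 1 fit gave 1735 values under the alternatives. Of these, 1639 kept their side of the threshold, 70 lost and 26 gained a call. The CA12 calls in SW480 given above are not among the 26. Among the 58 results of members never called there were 45 changes of sign. Leaving out 1 library gave 10 to 14 members higher and 13 to 14 lower in SW480, 0 to 1 higher and 5 to 7 lower in SW620, 9 to 12 higher and 9 to 12 lower for the difference between lines, and 15 to 18 higher and 17 to 18 lower in SW620 GFP against SW480 GFP. The single rise in SW620, ENO2, was lost without any 1 of 7 of the 8 libraries. Beside the losses given above, upper-quartile scaling ended the calls of PFKL, GAPDH and LDHA between the GFP lines (edgeR adjusted p = 0.0586, 0.0712 and 0.0677). For the difference between lines ALDOA was also called lower in 5 alternatives: upper-quartile scaling, DESeq2, the replicate block, and without SW620 GFP replicate 3 or SW620 dnLEF1 replicate 2 (adjusted p from edgeR or DESeq2 = 0.0302 to 0.04995). DESeq2 added PLOD1 as lower in SW620 (DESeq2 adjusted p = 0.0409).

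The replicate numbers were not taken to pair the libraries, because the deviations of same-numbered libraries correlated by -0.11 to 0.27 in SW480, -0.023 to 0.39 in SW620 (above 0.1 in 3 of its 4 pairs) and -0.051 to 0.20 between the GFP lines. Whether same-numbered SW620 libraries belong together is not known, and the SW620 calls depend on this choice. With the replicate block 12 members were higher and 13 lower in SW480, 1 higher and 10 lower in SW620, 12 higher and 13 lower for the difference between lines, and 17 higher and 17 lower between the GFP lines. The block ended the GAPDH call in SW480 (edgeR adjusted p = 0.0614) and added ALDOC, PGK1 and PLOD1 as lower in SW620. Over all genes it moved the SW620 calls from 804 higher and 324 lower to 1149 higher and 676 lower. Depth limits EPAS1 in SW620, CA12 in SW480 and BNIP3 in all groups, whose reads were too few for the test within those lines.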

Other observations

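Most of the other HIF target genes, which are not members, stood lower in SW620 GFP than in SW480 GFP. Of 33 tested between the GFP libraries, 20 were lower and 9 higher in SW620 (edgeR, adjusted p below 0.05), with a median log2 fold change of -0.76 while 40.3% of all genes tested were lower and 37.7% higher. IGFBP3, a binding protein for insulin-like growth factors, stood at 127 ± 16.4 CPM in SW480 GFP and at 0.890 ± 0.292 CPM in SW620 GFP (mean ± SD, n = 4, log2 fold change -7.16 ± 0.16). CDKN1A, a brake on the cell cycle, stood at 76.7 ± 6.17 and 1.42 ± 0.0928 CPM (-5.76 ± 0.10). LOXL2 stood at 27.8 ± 0.969 and 1.25 ± 0.431 CPM (-4.46 ± 0.15). Higher in SW620 were ZNF395, at 44.6 ± 1.21 and 87.7 ± 1.26 CPM (0.97 ± 0.052), and KDM4C (0.91 ± 0.062). Of the 12 oxygen-sensing genes tested, 6 were higher and 3 lower in SW620 GFP, VHL among the higher at 2.38-fold (1.25 ± 0.059, edgeR adjusted p = 8.41e-11). Among other glucose transporters, SLC2A10 stood at 14.3 ± 1.91 CPM in SW480 GFP and at 0.259 ± 0.113 CPM in SW620 GFP. These genes were named after their values were seen.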
